A study of Mus musculus with 15 samples.

Results

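Small RNA in the medium of TUBO breast cancer cells was sequenced in 2 fractions: exosomes isolated from the culture supernatant, and the supernatant that was left after that isolation. Each fraction had 3 libraries, so that 6 of the 15 libraries of the series are compared here, taken by their labels. TUBO is a mouse mammary carcinoma line from primary tumours of Balb-NeuT animals, which carry the activated rat form of Her2 as a transgene under a mammary tumour virus promoter. The untreated cells were grown in DMEM with 10% fetal calf serum, and 3 libraries of the cells themselves are used as a reference. No genotype or treatment differs between the 3 sample types, which come from 1 line, and whether replicates are separate cultures is not stated in the labels, so that p-values measure the spread between these libraries, which may be technical. How the exosomes were isolated, and how pure they were, is not given in the labels either. The libraries report miRNA, so that neither fraction could be checked against exosome proteins. The study set out to find miRNAs in Her2 lines and their secreted particles that act on the progesterone receptor.

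MicroRNAs are short RNAs cut from hairpin precursors by Drosha and Dicer. One strand, the guide, is loaded into an Argonaute protein and directs it to messenger RNAs through its seed, the bases from position 2 to position 8 at the 5′ end, while the other strand, the passenger, is mostly degraded. Outside cells, miRNAs are known both inside membrane vesicles such as exosomes, which bud from endosomes, and free of vesicles, bound to Argonaute or to lipoproteins, and material of both kinds can be found in cell culture medium and in serum.

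The mature sequences that carry the comparison come from RefSeq on GRCm38.p6 and are printed 5′ to 3′ with the seed in capitals. The first set is the seed family that took the largest share of the supernatant reads. Of these, miR-25, miR-92a and miR-92b are the abundant members and miR-32 is a scarce one.
miR-92a-3p: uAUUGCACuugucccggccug
miR-92b-3p: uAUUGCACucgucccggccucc
miR-25-3p: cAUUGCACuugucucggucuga
miR-32-5p: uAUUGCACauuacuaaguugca
The second set holds 4 let-7 members, which have the same seed and differ by single bases. Relative to the miRNA reads, let-7a-5p and let-7f-5p were higher in exosomes and let-7b-5p and let-7c-5p in supernatant. The latter were abundant in exosomes as well, at means of 28173 and 57193 CPM.
let-7b-5p: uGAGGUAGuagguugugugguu
let-7c-5p: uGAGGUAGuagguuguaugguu
let-7a-5p: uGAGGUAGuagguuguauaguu
let-7f-5p: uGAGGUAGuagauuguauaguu
The third set holds miRNAs with large differences and no shared seed, first 4 that were higher in exosomes and then 3 that were higher in supernatant.
miR-9-5p: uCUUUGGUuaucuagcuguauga
miR-21a-5p: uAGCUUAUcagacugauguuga
miR-144-5p: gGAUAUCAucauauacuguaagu
miR-142a-5p: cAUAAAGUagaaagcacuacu
let-7d-3p: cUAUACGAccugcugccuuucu
miR-423-5p: uGAGGGGCagagagcgagacuuu
miR-204-3p: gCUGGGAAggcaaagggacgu

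Exosome libraries held 583658, 428335 and 498402 reads and supernatant libraries 228034, 196152 and 273567. The share of reads assigned to a miRNA was 60.8, 57.5 and 59.4% in exosomes and 33.2, 30.1 and 28.2% in supernatant, against 76.3% ± 0.494 (SD, n = 3) in cells. The fractions did not overlap in this share, and the exact two-sided permutation p was 0.1, the smallest that 3 libraries against 3 can give. That left 246027 to 354426 miRNA reads per exosome library and 58933 to 76972 per supernatant library. Levels are in CPM, the reads of a miRNA per 1000000 miRNA reads of the library. They are therefore shares of the miRNA in a fraction, and neither the number of vesicles nor the amount of RNA per fraction can be told from them. The third library of each fraction stood apart from the other 2: its counts differed from theirs by 102 and 103 times the sampling variance in exosomes and by 45.9 and 44 times in supernatant, against 17.2 and 6.01 times between the first and second libraries.

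The 2 fractions held many of the same miRNAs, 52 of them at 1000 CPM or more in both, but in very different proportions. Of 714 miRNA arms with a read, 245 had enough reads to be tested; 83 of them, or 33.9%, were higher in exosomes, 75, or 30.6%, were higher in supernatant, and 87 passed in neither direction (edgeR quasi-likelihood test, adjusted p under 0.05). Together 64.5% were called. Without the third exosome library the counts were 97 and 79, and without the third supernatant library 94 and 70. Differences were large: 77 of the calls toward exosomes and 71 of those toward supernatant exceeded 2-fold, and 25 and 23 exceeded 8-fold. For 66.9% of the tested miRNAs the 3 exosome libraries did not overlap with the 3 supernatant libraries. The even split belongs to the TMM scaling used here. RLE, upper-quartile and no scaling, also within the miRNA reads, gave 94 and 65, 94 and 64, and 95 and 66 calls. A filter of at least 10 reads in 3 or more libraries gave 98 and 61. When all reads of a library were used as its size, 142 miRNAs were higher in exosomes and 32 in supernatant, so that 81.6% of the calls lay in exosomes against 52.5%, and the median log2 fold change of all miRNAs moved from 0.21 to 1.50. Log2 fold changes are relative to a library's miRNA reads times its TMM factor, unless the sentence names another scaling. That factor was 0.7064 for supernatant replicate 3 and 1.061 to 1.13 for exosomes. CPM values do not carry it, so a log2 fold change can lie nearer to supernatant than the CPM beside it. With no scaling miR-143-3p was 0.76 where the fit gave 0.40, and miR-30d-5p was −0.42 (not called) where it gave −0.76.

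**Figure D1:**
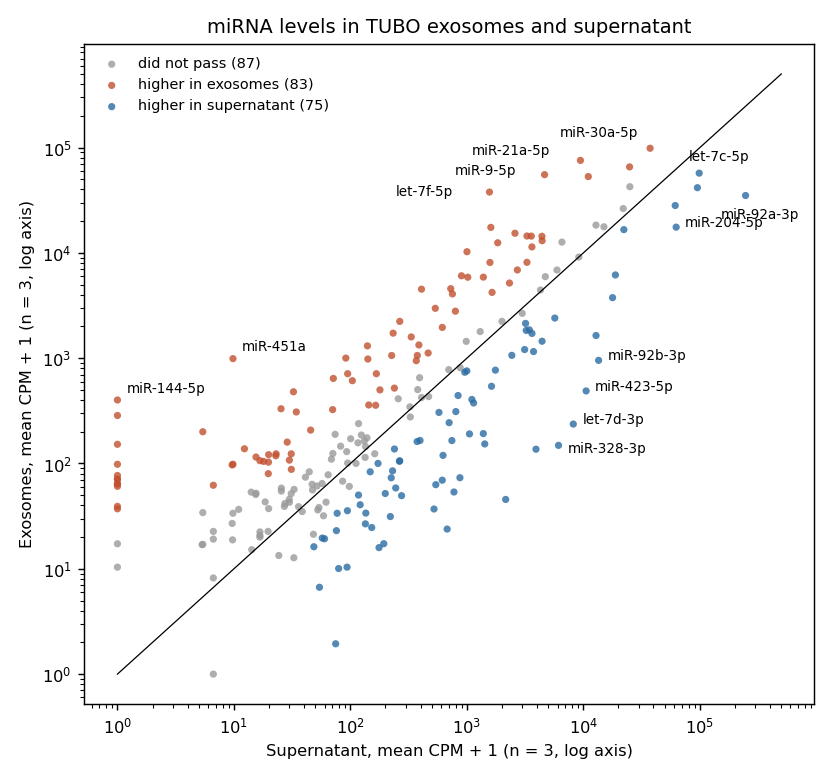
Mean CPM + 1 of the 245 tested miRNAs in supernatant (x axis) and exosomes (y axis), n = 3 libraries each, both axes logarithmic; colours mark the 83 miRNAs higher in exosomes, the 75 higher in supernatant and the 87 that did not pass, and the line marks equal levels. miR-92a-3p lies farthest to the right, far under the line, and let-7f-5p and miR-9-5p lie far above it.

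The top few species held more of the miRNA reads in supernatant. The most abundant one made up 25.3, 24.2 and 24.6% of the miRNA reads in the 3 supernatant libraries and 11.1, 11.4 and 9.10% in the 3 exosome libraries. It took 4, 5 and 4 species to reach 50% of the miRNA reads in supernatant, 8, 8 and 9 in exosomes, and 8 in each cell library. To reach 90% it took 36, 38 and 28 species in supernatant and 36, 38 and 38 in exosomes, so the third supernatant library alone stood lower. In exosomes the 5 highest were miR-30a-5p, miR-21a-5p, miR-182-5p, let-7c-5p and miR-9-5p; in supernatant they were miR-92a-3p, let-7c-5p, miR-25-3p, miR-204-5p and let-7b-5p. The order of read levels between miRNAs also carries the preferences of adapter ligation.

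The leading exosome miRNAs are abundant in the cells too. miR-30a-5p, of the family that shares its seed with miR-30c and miR-30e, stood at 111121, 113788 and 70821 CPM in exosomes and 44223, 45289 and 22697 CPM in supernatant (log2 fold change 1.13 ± 0.22 (SE), edgeR adjusted p = 0.00031). miR-21a-5p, a miRNA raised in many carcinomas, stood at 84384, 87840.0 and 54504 CPM in exosomes and 9913, 12777 and 5612 CPM in supernatant (log2 fold change 2.74 ± 0.24 (SE), edgeR adjusted p = 7.3e-08). For both, every exosome library lay above every supernatant library. The third library was the lowest of its fraction for each of them.

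miR-9-5p, printed above, was the abundant miRNA with one of the largest differences. It is known for its role in neural progenitors and, in breast cancer cells, for targeting E-cadherin. Its levels were 56514, 62623 and 46885 CPM in exosomes and 5273, 6736 and 1923 CPM in supernatant, and 55438 CPM on average in cells (log2 fold change 3.35 ± 0.28 (SE), edgeR adjusted p = 6.7e-08). Exosomes and cells differed by −0.09 on the log2 scale (edgeR adjusted p = 0.794), while supernatant was lower than cells by a log2 fold change of −3.44 (adjusted p = 5.4e-08); the 2 comparisons share the cell libraries. Together miR-9-5p and miR-30a-5p, which the study followed as candidate regulators of the progesterone receptor, made up 15.4% ± 3.17 of miRNA reads in exosomes, 4.20% ± 1.51 in supernatant and 20% ± 0.52 in cells (SD, n = 3).

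The levels in the cells were nearer to those in exosomes than to those in supernatant, by the counts of each comparison. Against cells, 47.3% of the 245 miRNAs were called for exosomes, 46 higher and 70 lower, and 73.5% for supernatant, 84 higher and 96 lower. The median absolute log2 difference from cells was 0.709 for exosomes and 1.88 for supernatant, and that between the fractions was 1.58. These comparisons share libraries, and the supernatant libraries were the shallowest.

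The miRNAs of the miR-25/92 seed family set the supernatant apart. They repress, among others, regulators of cell survival and of the cell cycle, and are made from several genes: miR-92a from the miR-17-92 cluster (Mir92-1, chr14:115044427-115044506, plus strand, in an exon of the host transcript Mir17hg) and from a second copy on the X chromosome (Mir92-2, chrX:52741838-52741928, minus strand), miR-25 from the miR-106b-25 cluster (chr5:138165321-138165404, minus strand, overlapping Mcm7 on the same strand), and miR-92b from a gene of its own (chr3:89227116-89227198, minus strand; all GRCm38.p6). Together the family held 7.11, 6.75 and 9.44% of miRNA reads in exosomes and 34, 33.4 and 39.2% in supernatant (exact two-sided permutation p = 0.1), against 8.84% ± 0.105 in cells (SD, n = 3). Of 5 members with a read 4 were tested: 3 were higher in supernatant and miR-32-5p did not pass. Among all tested miRNAs 30.6% were higher in supernatant. With all reads as library size, miR-92a-3p and miR-92b-3p kept their calls, at −1.86 and −2.85, and miR-25-3p did not, at −0.22 (edgeR adjusted p = 0.4).

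miR-92a-3p alone stood at 253126, 241478 and 246089 CPM in supernatant and 31973, 30228 and 43009 CPM in exosomes (log2 fold change -3.14 ± 0.24 (SE), edgeR adjusted p = 2.5e-08), and at 64104 CPM in cells. miR-25-3p stood at 75375, 81924 and 128657 CPM in supernatant and 38248, 36427 and 50199 CPM in exosomes (log2 fold change -1.57 ± 0.30 (SE), edgeR adjusted p = 0.00026). Its difference leaned on the third supernatant library, without which it was −0.75 (adjusted p = 0.00058). miR-92b-3p was less abundant but more uneven, at 11948, 11029 and 17565 CPM in supernatant and 878, 784 and 1197 CPM in exosomes (log2 fold change -4.20 ± 0.32 (SE), edgeR adjusted p = 3.2e-08; −3.43 without supernatant replicate 3). Counted from 1 at the 5′ end, miR-92a-3p and miR-92b-3p differ by U10C and G21C. The scarce miR-32-5p had 16 reads in exosomes and 1 in supernatant, a 3.78-fold difference in CPM (95% counting interval 0.587 to 158).

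The other miRNAs of the same 2 transcripts went the other way. Of the 11 other arms of the miR-17-92 and miR-106b-25 clusters, which promote cell cycle entry, 10 were tested, 7 were higher in exosomes, 1 was higher in supernatant and 2 did not pass. Their median log2 fold change was 2.51 against 0.21 over all tested miRNAs, and their joint share was 2.93% ± 0.507 in exosomes, 0.742% ± 0.0986 in supernatant and 1.75% ± 0.107 in cells (SD, n = 3). Among all tested miRNAs 33.9% were higher in exosomes and 30.6% in supernatant. miR-93-5p, whose hairpin lies beside that of miR-25 in Mcm7 (chr5:138165523-138165610, minus strand), stood at 15885, 14787 and 15414 CPM in exosomes and 3238, 2868 and 1650.0 CPM in supernatant (log2 fold change 2.30 ± 0.20 (SE), edgeR adjusted p = 7.3e-08). miR-20a-5p, from the transcript of miR-92a, stood at 1701, 1736 and 1748 CPM in exosomes and 396, 221 and 77.95 CPM in supernatant (log2 fold change 2.63 ± 0.31 (SE), edgeR adjusted p = 2.6e-06; 3.49 without supernatant replicate 1). In both, all exosome libraries lay above all supernatant libraries, the opposite of miR-25-3p and miR-92a-3p. miR-17-5p, miR-19a-3p, miR-19b-3p and miR-106b-5p were higher in exosomes too, at log2 fold changes of 2.49, 2.82, 2.54 and 2.96; miR-19b-3p ranged from 2150.0 to 10808 CPM within the exosomes and from 169 to 1269 CPM in supernatant. miR-19a-3p reached 3.58 without supernatant replicate 1 and miR-106b-5p 3.67 without supernatant replicate 2. miR-18a-5p had 64 reads in exosomes and none in supernatant, and was at least 5.04-fold higher in exosomes against a floor of 3 reads over the 3 supernatant libraries (14.2 CPM). The exception was miR-106b-3p, the other arm of the miR-106b hairpin, at 2102, 1748 and 2563 CPM in exosomes and 2683, 2613 and 4274 CPM in supernatant (log2 fold change -0.95 ± 0.29 (SE), edgeR adjusted p = 0.00991); its call was lost without supernatant replicate 3 (−0.15, adjusted p = 0.47), exosome replicate 1 (−0.68, adjusted p = 0.058) or exosome replicate 2 (−0.48, adjusted p = 0.15), and with all reads as library size it was 0.40 (adjusted p = 0.15).

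**Figure D2:**
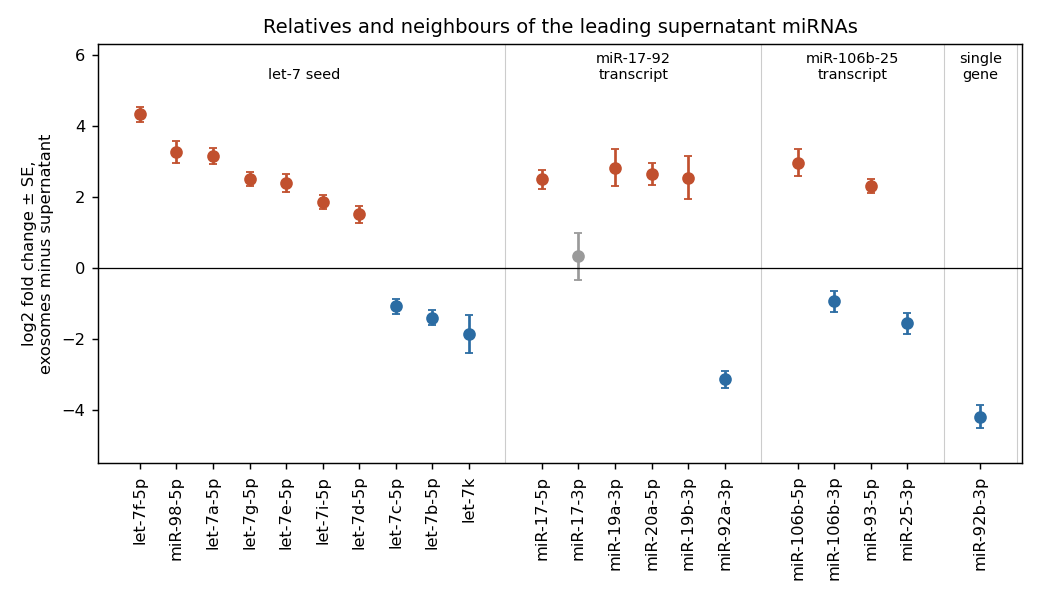
Log2 fold change, exosomes minus supernatant, with a standard error derived from the edgeR F statistic (9 libraries) for the tested let-7 members, 6 of the tested arms of the miR-17-92 transcript, 4 of the miR-106b-25 transcript and the singly encoded miR-92b-3p. Red is higher in exosomes, blue higher in supernatant and grey did not pass. let-7f-5p at 4.32 and let-7b-5p at −1.41 share a seed (−0.18 for let-7b-5p, 0.17 for let-7c-5p and 0.40 for miR-106b-3p with all reads as library size), and miR-20a-5p at 2.63 and miR-92a-3p at −3.14 share a transcript.

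The let-7 family made up a large share of both fractions, and its members separated. let-7 miRNAs hold back growth and are best known for repressing Ras, Myc and Lin28 transcripts. The family held 17.3, 15.1 and 20% of miRNA reads in exosomes and 18.6, 18.1 and 14.2% in supernatant, a difference of 0.478 percentage points that was smaller than the spread between replicates (exact two-sided permutation p = 0.8, where 3 against 3 cannot go below 0.1). When only inserts that fit 1 mature miRNA by their first 18 bases were counted it was 3.42 points. That count drops most reads of let-7a-5p and let-7c-5p, whose first 18 bases are the same, so it describes a reduced family. The shares are not shown to be equal. Of its 10 members, 7 were higher in exosomes and 3 (let-7b-5p, let-7c-5p and let-7k) in supernatant, against 33.9 and 30.6% of all tested miRNAs. With all reads as library size 7 members were higher in exosomes and none in supernatant, let-7c-5p turning to 0.17 and let-7b-5p standing at −0.18. In that setting 142 and 32 of all 246 tested miRNAs were called.

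let-7f-5p showed the largest difference of all miRNAs above 1000 CPM in both fractions, at 40686, 34216 and 38593 CPM in exosomes and 1586, 1968 and 1130.0 CPM in supernatant (log2 fold change 4.32 ± 0.21 (SE), edgeR adjusted p = 2.5e-10). let-7a-5p stood at 16443, 14141 and 21819 CPM in exosomes and 1692, 1799 and 1325 CPM in supernatant (log2 fold change 3.15 ± 0.23 (SE), edgeR adjusted p = 1.7e-08). In both, the lowest exosome library was several times above the highest supernatant library. let-7c-5p went the other way, at 54361, 46690.0 and 70527 CPM in exosomes and 106738, 101556 and 87954 CPM in supernatant (log2 fold change -1.09 ± 0.21 (SE), edgeR adjusted p = 0.00029). let-7b-5p did so as well, at 26090.0, 23420.0 and 35008 CPM in exosomes and 68872, 68637 and 46874 CPM in supernatant (log2 fold change -1.41 ± 0.21 (SE), edgeR adjusted p = 2.1e-05). Neither of these groups overlapped. From let-7b to let-7c the difference is G17A, from let-7c to let-7a it is G19A and from let-7a to let-7f it is G12A, and the number of G and C bases falls from 10 to 9, 8 and 7, each of 22 bases. Along that order the log2 fold change was −1.41, −1.09, 3.15 and 4.32; the first 2 did not differ beyond their errors. In the cells the 4 members stood at 16661 CPM, 31448 CPM, 10899 CPM and 31137 CPM.

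Since single bases separate these members, a sequencing error in an abundant one can be counted as a scarce one. let-7a-5p and let-7f-5p were scarce in supernatant beside let-7c-5p, so that their supernatant levels are upper limits in this respect. In supernatant 11.4% of let-7f-5p reads departed from the hairpin after base 18, against 3.23% in exosomes. let-7c-5p and let-7a-5p share their first 18 bases. Counting only inserts whose first 18 bases belong to 1 mature miRNA thus drops their reads that start at the annotated base. Those were 99.1% of let-7c-5p reads in exosomes and 98.3% in supernatant. The few reads left gave −1.95 for let-7c-5p, a value that cannot bear on sequencing errors. miR-98-5p, a let-7 relative with more differences, stood at 1075, 931 and 998 CPM in exosomes and 79.3, 153 and 38.98 CPM in supernatant (log2 fold change 3.25 ± 0.31 (SE), edgeR adjusted p = 2.1e-07; 3.95 without supernatant replicate 2). let-7g-5p, let-7e-5p, let-7i-5p and let-7d-5p were higher in exosomes by log2 fold changes of 2.49, 2.38, 1.85 and 1.50, and let-7k, with few reads, was lower by 1.87 on that scale, at 18.6 CPM in exosomes and 56.3 CPM in supernatant.

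Base composition, which the choice of libraries did not use, followed the difference between the fractions across miRNAs. A RefSeq mature sequence was matched for 213 of the 245 tested miRNAs. The median GC content was 40.9% for the 73 matched miRNAs that were higher in exosomes, 45.6% for the 74 that did not pass and 54.5% for the 66 that were higher in supernatant. Below 35% GC, 17 of 23 miRNAs were higher in exosomes and 0 in supernatant; from 60% GC upward, 0 of 28 were higher in exosomes and 22 in supernatant. The median log2 fold change fell from class to class, from 2.82 below 35% through 1.08 at 40 to 45% and −0.46 at 50 to 55% to −1.91 at 60% and above. Across the 213 miRNAs, which are not independent replicates and share their libraries, Spearman's rho between GC content and the log2 fold change was −0.585 and Pearson's r was −0.533. It was −0.756 (r −0.715) among the 60 miRNAs with a mean of at least 1000 CPM. Over 24 other ways of counting, scaling or leaving out a library, a set chosen after the data were seen, rho lay between −0.655 and −0.448.

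The composition of the exosome miRNAs was near that of the cells. Weighted by reads, GC content was 43.8, 43.7 and 44.3% in the exosome libraries, 44.2, 44.3 and 44.4% in the cell libraries and 49.98, 49.9 and 50.4% in the supernatant libraries. Across miRNAs, rho between GC content and the log2 difference from cells was −0.0791 for exosomes and 0.533 for supernatant. Depth, the share of short inserts and the share of reads outside miRNAs differed between the fractions as well, and their part in the relation to GC content was not tested.

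**Figure D3:**
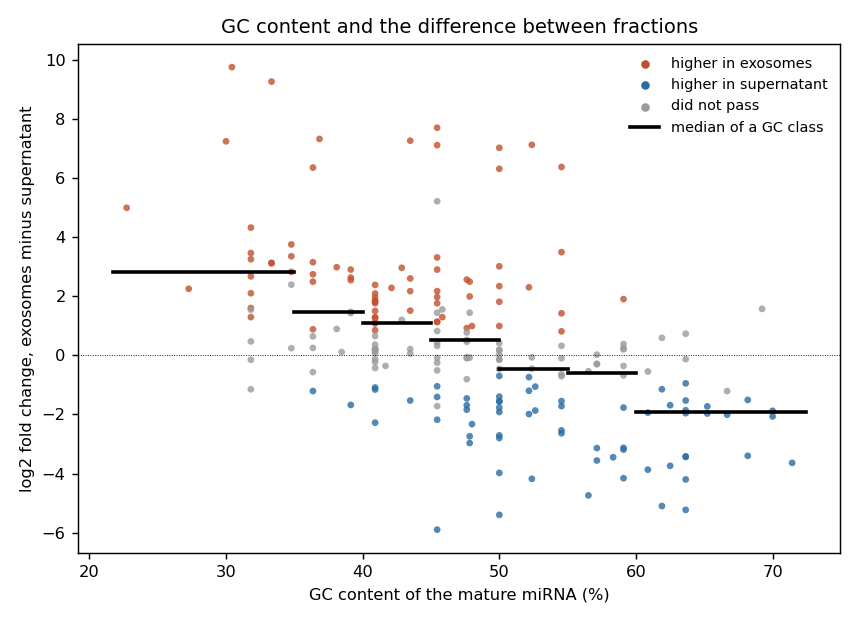
GC content of the mature miRNA in percent (x axis) against the log2 fold change, exosomes minus supernatant (y axis), for 213 tested miRNAs; black bars are medians of GC classes, and points above about 7 are fitted values of miRNAs with no supernatant read, which depend on the fit's prior count. The medians step down from 2.82 in the lowest class to −1.91 in the highest.

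The same order was seen inside most seed families, whose members share the seed but differ in their 3′ parts. Spearman's rho with GC content, over 3 to 10 members of 1 family with a matched sequence, was below 0 in 9 of 12. The let-7 family spanned 6.19 log2 units and the miR-25/92 family 5.73, with the members of most GC lowest in both. The miR-29 family, whose members target collagen transcripts, spanned 2.17, but its 3 members did not pass the test. With RLE, upper-quartile, no scaling and all reads as library size, 1, 1, 2 and 3 of them were higher in exosomes. miR-29a-3p passed without exosome replicate 3 (0.64) or supernatant replicate 3 (0.77), and miR-29b-3p without exosome replicate 3 (2.95) or supernatant replicate 1. In 4 families all tested members with a matched sequence passed in the same direction. The 4 members of the miR-17/20a/93/106b seed (AAAGUGC) were all higher in exosomes, at 2.30 to 2.96. The 4 miR-181 members were all higher in exosomes, at 1.13 to 1.99. For the miR-30 seed (GUAAACA), the matched miR-30e-5p, miR-30a-5p and miR-30c-5p were higher in exosomes, at 1.13 to 2.17. That family is split, since 2 members were tested without a matched sequence. Of these, miR-30b-5p was higher in exosomes (2.26) and miR-30d-5p in supernatant (−0.76). The 3 members of the miR-125 seed (CCCUGAG) were all higher in supernatant, at −1.92 to −1.40. miR-125a-5p missed the threshold with all reads as library size (−0.13, adjusted p = 0.63). miR-181c-5p lost its call without exosome replicate 1, exosome replicate 2 or supernatant replicate 2 (adjusted p = 0.077, 0.059 and 0.061).

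Short sequence motifs described in the literature on exosome loading were counted as plain strings in the mature sequences of the matched miRNAs, on the miRNA strand alone. GGAG was present in 1.37% of the miRNAs that were higher in exosomes, in 10.6% of those higher in supernatant, in 12.2% of those that did not pass and in 7.98% of all matched miRNAs. CCCU was present in 2.74, 16.7, 4.05 and 7.51% of the same groups and GGCU in 4.11, 15.2, 14.9 and 11.3%. GGAG and GGCU were thus about as frequent among miRNAs that did not pass as among those higher in supernatant. The counts are small: GGAG was in 1 of 73 miRNAs higher in exosomes and in 7 of 66 higher in supernatant. For CCCU the counts were 2 and 11, and for GGCU 3 and 10. Each string is mostly G and C, and the groups differ in GC content, whose part in these counts was not tested. A match is a string in the sequence and shows no binding.

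Epithelial and other tissue families were also divided between the fractions. Of the 7 epithelial miRNAs of the miR-200 family with miR-203 and miR-205, which hold cells in an epithelial state, 4 were higher in exosomes, miR-205-5p was higher in supernatant and 2 did not pass; with all reads as library size 6 were higher in exosomes and none in supernatant. Their joint share was 2.13% ± 0.117 in exosomes, 1.19% ± 0.344 in supernatant and 2.61% ± 0.0704 in cells (SD, n = 3). Over all tested miRNAs 33.9% were higher in exosomes and 30.6% in supernatant. With all reads as library size 142 and 32 of 246 were, so the rise to 6 goes with a general shift toward exosomes. miR-200a-3p stood at 8690.0, 8625 and 3341 CPM in exosomes and 2789, 3750.0 and 1598 CPM in supernatant (log2 fold change 1.08 ± 0.30 (SE), edgeR adjusted p = 0.00559; 1.67 without exosome replicate 3). miR-200c-3p, of a second cluster, was similar in level, at 5640.0, 4951 and 7244 CPM and 4864, 5803 and 3469 CPM, and the groups overlapped (log2 fold change 0.06 ± 0.20 (SE), edgeR adjusted p = 0.815). miR-205-5p stood at 84.6, 73.2 and 94.7 CPM in exosomes and 251, 254 and 181.9 CPM in supernatant (log2 fold change -1.72 ± 0.31 (SE), edgeR adjusted p = 0.00018).

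The miR-30 family, which restrains the mesenchymal program, had 4 of 5 members higher in exosomes and a joint share of 12.6% ± 2.05 against 6.19% ± 1.17 in supernatant. Among all tested miRNAs 33.9% were higher in exosomes. miR-30c-5p was at 3456, 3683 and 5093 CPM in exosomes and 674, 1018 and 559 CPM in supernatant (log2 fold change 2.17 ± 0.23 (SE), edgeR adjusted p = 7.5e-07). Its relative miR-30d-5p was the exception, at 14240.0, 14661 and 20974 CPM and 21239, 21312 and 24269 CPM (log2 fold change -0.76 ± 0.23 (SE), edgeR adjusted p = 0.0102), and lost its call without exosome replicate 1, exosome replicate 2 or supernatant replicate 3 (−0.43, −0.36 and −0.20; adjusted p = 0.12, 0.18 and 0.28); with all reads as library size it turned to 0.54 (adjusted p = 0.033). From miR-30a-5p to miR-30e-5p, which was higher in exosomes by 1.81, the single base difference is C13U. Both miR-26 members, which repress Ezh2 in other systems, were higher in exosomes. miR-26b-5p stood at 4650.0, 4617 and 4295 CPM in exosomes and 396, 356 and 468 CPM in supernatant (log2 fold change 3.13 ± 0.25 (SE), edgeR adjusted p = 4.3e-08; 3.75 without supernatant replicate 3).

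In the sensory-organ cluster of miR-183, miR-96 and miR-182, 2 of 3 were higher in exosomes and miR-96-5p, with 44 and 3 reads, did not pass (1.47, adjusted p = 0.0668); it passed toward exosomes under all 4 other scalings (1.74 to 2.69), with inserts of 20 to 24 or 21 to 26 bases alone (3.02 and 2.86), and without exosome replicate 1, exosome replicate 2 or supernatant replicate 3 (1.78, 1.72 and 1.86). miR-182-5p was high in all libraries, at 51616, 54177 and 90949 CPM in exosomes and 16521, 20634 and 37650.0 CPM in supernatant (log2 fold change 0.99 ± 0.38 (SE), edgeR adjusted p = 0.0332). The third library was the highest of each fraction, and without supernatant replicate 3 the difference was 1.98; with the exosome and supernatant libraries alone in the fit the adjusted p was 0.051. miR-183-5p was higher in exosomes by 1.29, or 2.02 without supernatant replicate 3. Among all tested miRNAs 33.9% were higher in exosomes.

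The miR-99/100 and miR-125 miRNAs, which are often encoded beside let-7 genes, went the other way: 4 of 5 were higher in supernatant and none in exosomes, with joint shares of 2.80% ± 0.259 and 1.02% ± 0.0947 (SD, n = 3). Among all tested miRNAs 30.6% were higher in supernatant. With all reads as library size 2 of the 5 were higher in supernatant, and miR-100-5p turned to 0.59 (edgeR adjusted p = 0.073). miR-99b-5p stood at 15873, 18563 and 22047 CPM in supernatant and 6540.0, 5256 and 6726 CPM in exosomes (log2 fold change -1.96 ± 0.25 (SE), edgeR adjusted p = 4.5e-06; −1.31 without supernatant replicate 3). miR-125b-5p stood at 4811, 4480.0 and 3962 CPM in supernatant and 1478, 1463 and 1403 CPM in exosomes (log2 fold change -1.92 ± 0.19 (SE), edgeR adjusted p = 3e-07). Neither of these overlapped, whereas miR-100-5p overlapped and its call, at an adjusted p of 0.0447, was lost on leaving out any of the 9 libraries other than supernatant replicate 1.

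The clusters of miR-23, miR-27 and miR-24, which are transcribed together, showed all 3 outcomes, in which the direction of miR-27b-3p and miR-27a-3p turned with the scaling. miR-24-3p was higher in supernatant, at 5630.0, 6075 and 5353 CPM against 2204, 2276 and 2736 CPM (log2 fold change -1.55 ± 0.20 (SE), edgeR adjusted p = 4.5e-06). miR-27b-3p stood at 19770.0, 19352 and 13970.0 CPM in exosomes and 14657, 17613 and 12771 CPM in supernatant and the groups overlapped (log2 fold change -0.07 ± 0.19 (SE), edgeR adjusted p = 0.786); with all reads as library size it was 1.19 (adjusted p = 0.00021), while miR-24-3p was −0.28 (adjusted p = 0.23) and miR-27a-3p went from −0.45 to 0.86 (adjusted p = 0.0062). miR-23b-3p was higher in exosomes by 2.01 and miR-23a-3p in supernatant by −1.84. Both, however, begin with the same bases and differ near the 3′ end, where short inserts cannot be told apart. With inserts of 21 to 26 bases miR-23b-3p was at 4.16, so that this pair is uncertain. In that length range miR-27a-3p was at 0.74 (edgeR adjusted p = 0.065) and miR-27b-3p at 0.86 (edgeR adjusted p = 0.0032). The direction of these 2 thus turned with insert length too.

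Many of the largest differences toward supernatant were passenger strands or scarce arms. let-7d-3p, the strand opposite let-7d-5p, stood at 9133, 8654 and 6795 CPM in supernatant and 195, 175 and 338 CPM in exosomes (log2 fold change -5.40 ± 0.31 (SE), edgeR adjusted p = 1.2e-09). miR-328-3p stood at 6767, 7347 and 4235 CPM in supernatant and 141, 187 and 115 CPM in exosomes (log2 fold change -5.65 ± 0.27 (SE), edgeR adjusted p = 2.5e-10). miR-423-5p, whose hairpin lies in an intron of Nsrp1 (chr11:77078064-77078172, minus strand, GRCm38.p6), stood at 11155, 11080.0 and 9445 CPM in supernatant and 310.4, 479.6 and 673 CPM in exosomes (log2 fold change -4.74 ± 0.29 (SE), edgeR adjusted p = 1.8e-09). For all 3 the lowest supernatant library was far above the highest exosome library. In cells they stood at 172 CPM, 263 CPM and 786 CPM, near the exosomes. miR-204-3p, from a hairpin in an intron of Trpm3, stood at 4401, 4768 and 2585 CPM in supernatant and 95.9, 81.3 and 230.0 CPM in exosomes (log2 fold change -5.10 ± 0.37 (SE), edgeR adjusted p = 2e-08), and its guide miR-204-5p was higher in supernatant by −2.18.

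**Figure D4:**
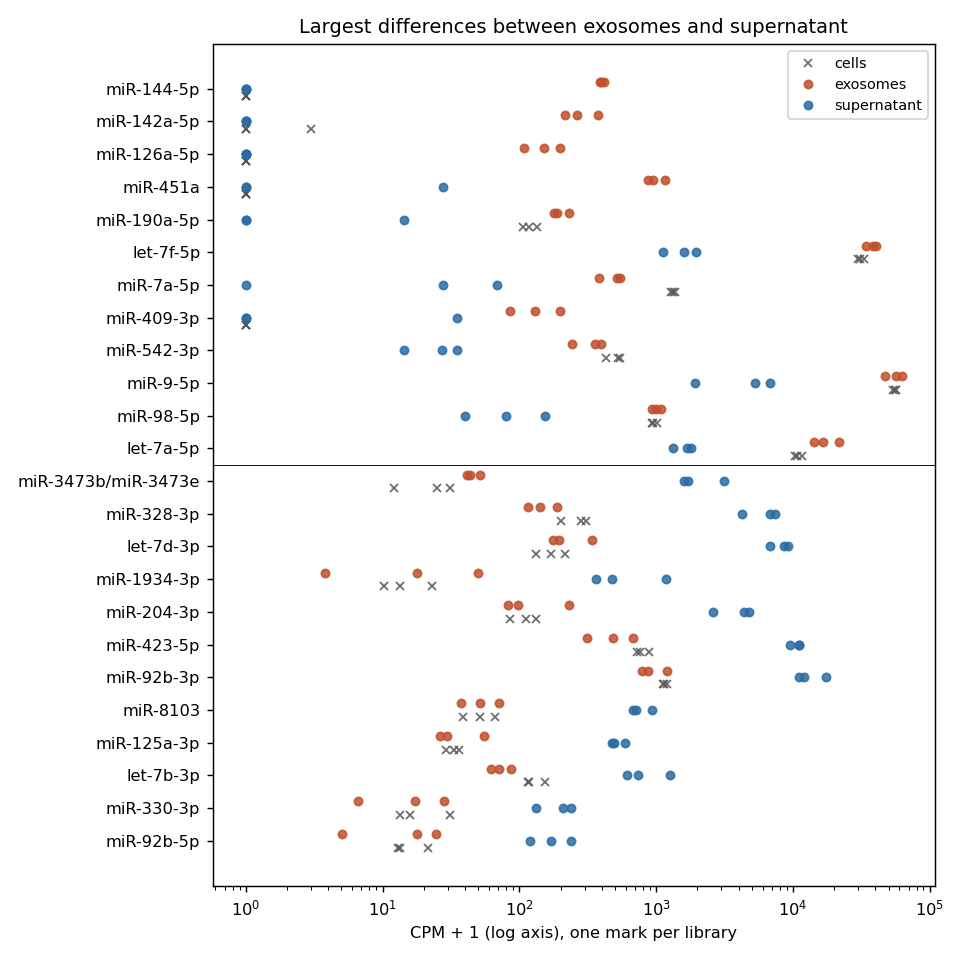
CPM + 1 on a logarithmic axis for the 12 miRNAs with the largest differences toward exosomes (above the line) and the 12 toward supernatant (below it), among those that passed the test with at least 100 CPM in either fraction and no overlap, 1 mark per library: red exosomes, blue supernatant, grey crosses cells; marks at 1 are libraries with no read. For the lower 12 the cells lie near the exosomes, while 4 of the upper 12 (miR-144-5p, miR-126a-5p, miR-451a and miR-409-3p) have no read in any cell library.

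Guides were called for exosomes more often than passengers, a difference that was not tested. Both arms were tested for 54 hairpins, the guide being the arm with more reads in the cells. Mir144 and Mir126a had no read in cells, so their guide could not be told. Their 3p arms were counted as guides and their 5p arms as passengers, all called for exosomes. Of the guides 24 were higher in exosomes and 17 in supernatant (44.4 and 31.5%), with a median log2 fold change of 0.805. Of the passengers 10 and 17 were (18.5 and 31.5%), with a median of −0.0966. Over all 245 tested miRNAs these shares were 33.9 and 30.6%. Passengers have fewer reads in cells by definition, and fewer reads make a call harder. The part of this in the counts was not tested. In 6 hairpins the arms were called in opposite directions. let-7d-3p made up 15.0% of the reads of its hairpin in exosomes, 95.5% in supernatant and 7.42% in cells. let-7e-3p made up 0.560, 15.5 and 0.996% in the same order, and miR-200b-5p 0.928, 10.6 and 1.16%. The log2 fold change of let-7e-3p was −2.64, or −1.84 without supernatant replicate 1. In the hairpin of miR-151 the 3p arm was higher in supernatant (−2.66, or −1.62 without supernatant replicate 3) and the 5p arm in exosomes (1.18). Mir106b and Mir322 were the other 2. Among 43 hairpins whose arms differ in GC content, the arm with more GC had the lower log2 fold change in 31.

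The other large falls were scarcer miRNAs. miR-125a-3p, let-7b-3p, miR-330-3p, miR-92b-5p, miR-8103 and miR-1934-3p were higher in supernatant, at log2 fold changes of −4.16 (supernatant mean 521 CPM), −3.98 (870.4 CPM), −3.87 (193 CPM), −3.74 (175.1 CPM), −4.18 (774 CPM) and −5.23 (676 CPM). Single libraries moved some of them: let-7b-3p was −3.07 and miR-8103 −3.51 without supernatant replicate 3, miR-1934-3p was −4.45 without supernatant replicate 2, −4.42 without exosome replicate 1 and −6.08 without exosome replicate 2, miR-330-3p was −3.19 without exosome replicate 1, and miR-92b-5p was −3.08 without exosome replicate 2. miR-3473b/miR-3473e, 2 near-identical entries counted as 1, stood at 1586, 3156 and 1715 CPM in supernatant and 42.3, 40.6 and 50.7 CPM in exosomes (log2 fold change -5.85 ± 0.34 (SE), edgeR adjusted p = 1.3e-09; −4.58 when inserts had to start at the annotated base). It is among 15 catalogue entries doubted as miRNAs, of which 9 had a read, 4 were tested and 2 were higher in supernatant. miRNAs made without the usual Drosha or Dicer step were divided: miR-320-3p, cut from a capped precursor, was higher in supernatant, at 13455, 16035 and 9042 CPM against 1292, 1406 and 2222 CPM in exosomes (log2 fold change -3.23 ± 0.24 (SE), edgeR adjusted p = 2.5e-08), miR-484 was too (−1.53; with all reads as library size −0.24, adjusted p = 0.37), and miR-451a, which is cut by Argonaute 2 in place of Dicer, was higher in exosomes.

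miR-451a belongs to a group of blood cell miRNAs that were found in exosomes and hardly at all in the TUBO cells. It and miR-144 are neighbours on chromosome 11 (chr11:78073170-78073241 and chr11:78073005-78073070, plus strand, GRCm38.p6) and are known from red cells, and miR-142a and miR-223 are known from white cells. miR-451a stood at 945, 1150.0 and 872 CPM in exosomes and 26.4, 0 and 0 CPM in supernatant, and no cell library had a read. Both supernatant reads were in replicate 1. In all, 876 reads in exosomes faced 2 in supernatant, a 103-fold difference in CPM (95% counting interval 28.5 to 855). miR-144-5p stood at 389, 394 and 416 CPM in exosomes, with no read in supernatant or cells, and was at least 28.2-fold higher in exosomes than the supernatant floor. miR-142a-5p stood at 214, 264 and 375 CPM in exosomes with no read in supernatant and 1 in cells, at least 19.8-fold higher. These are shares of unlike depth, and a miRNA at 0 in supernatant may lie anywhere below 14.2 CPM.

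Across the list of 10 blood and serum miRNAs, all 10 had reads in exosomes, 6 had none in supernatant and 7 had none in cells. Their joint share of miRNA reads was 1.10 to 2.58% in exosomes, 0.307 to 0.715% in supernatant and 0.0127 to 0.0159% in cells. Most of it was miR-3107-5p/miR-486-5p, a red cell miRNA with 2 identical entries, at 9190.0, 10060.0 and 23882 CPM in exosomes, 3185, 2919 and 7119 CPM in supernatant and 140.3 CPM in cells. It was the highest in the third library of each fraction and its call (log2 fold change 1.30 ± 0.50 (SE), edgeR adjusted p = 0.0398) was lost without cell replicate 1 or 2 (edgeR adjusted p = 0.062 and 0.05), while the difference was 2.37 without supernatant replicate 3. The call was also lost with the exosome and supernatant libraries alone in the fit (1.28, edgeR adjusted p = 0.11). With inserts of 21 to 26 bases it was lost too (1.21, edgeR adjusted p = 0.12). miR-122-5p, a liver miRNA found in serum, was higher in supernatant, at 66.1, 136 and 25.98 CPM against 31.04, 36.6 and 30.4 CPM in exosomes and 5.35 CPM in cells (log2 fold change -1.42 ± 0.54 (SE), edgeR adjusted p = 0.0303), but the groups overlapped and its call was lost on leaving out any of the 9 libraries other than supernatant replicate 3; without supernatant replicate 2 it was −0.62 (adjusted p = 0.41). miR-126a-3p, an endothelial miRNA, had 85 reads in exosomes and none in the other 2 sample types, and its other arm miR-126a-5p, at 107, 150.4 and 196 CPM, was at least 10.5-fold higher than the supernatant floor. miR-144-3p, miR-142a-3p, miR-223-3p and miR-150-5p had 63, 26, 25 and 23 reads in exosomes and at most 1 in supernatant. Of the 7 tested members 6 were called for exosomes, but most of these passed the count filter through exosomes alone, so that this count supports nothing. The medium held 10% fetal calf serum, and its part in these values was not tested.

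miR-190a-5p and miR-409-3p also rested on very few supernatant reads. miR-190a-5p had 181 reads in exosomes and 1 in supernatant, in replicate 1, a 42.7-fold difference in CPM (95% counting interval 7.57 to 1700.0), and stood at 118 CPM in cells. miR-409-3p, of the imprinted Mirg cluster on chromosome 12, had 120 reads in exosomes, 2 in supernatant, both in replicate 2, and none in cells, a 14.2-fold difference (interval 3.84 to 118). miR-7a-5p stood at 542, 512 and 382 CPM in exosomes and 26.4, 67.9 and 0 CPM in supernatant (log2 fold change 3.75 ± 0.46 (SE), edgeR adjusted p = 3.4e-06; 5.03 without supernatant replicate 2). miR-542-3p stood at 356, 394 and 240.1 CPM and 13.2, 33.9 and 25.98 CPM (log2 fold change 3.46 ± 0.45 (SE), edgeR adjusted p = 6.2e-06). In both, the lowest exosome library was above the highest supernatant library.

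No stromal miRNA passed the test between the fractions, although the most abundant one did under each of the 4 other scalings. miR-143-3p, known from smooth muscle and fibroblasts, stood at 43671, 41178 and 42658 CPM in exosomes and 21900.0, 23196 and 30115 CPM in supernatant, and at 47529 CPM in cells (log2 fold change 0.40 ± 0.24 (SE), edgeR adjusted p = 0.152). Its libraries did not overlap, and leaving out any 1 exosome or supernatant library gave a call toward exosomes, at 0.55 to 1.09 (edgeR adjusted p = 0.04 to 1.1e-05). Of the 6 stromal miRNAs 3 were tested and none passed (edgeR), and 1 to 2 were higher in exosomes under the 4 other scalings. Over all tested miRNAs the calls toward exosomes went from 83 to 94, 94, 95 and 142 under those scalings. Calls toward supernatant went from 75 to 65, 64, 66 and 32. The 6 members of the miR-15/16 family, which restrain the cell cycle, had 1 call in each direction, 2 toward exosomes and 1 toward supernatant under 3 other scalings, and 4 and 0 with all reads as library size. miR-195a-5p did not pass (1.20, edgeR adjusted p = 0.0507) and passed toward exosomes under all 4 other scalings (1.47 to 2.41), with DESeq2 (1.48, adjusted p = 0.0019) and without any 1 of the libraries other than supernatant replicate 1 (1.00 to 2.38). Of the others, miR-15b-5p was higher in supernatant (−1.16; −0.68 without supernatant replicate 2, adjusted p = 0.073; 0.04 with all reads as library size), miR-322-5p was higher in exosomes (1.76; 1.59 without supernatant replicate 1, adjusted p = 0.076; 2.48 without supernatant replicate 2), and the most abundant, miR-16-5p, stood at 2480.0, 2353 and 3165 CPM in exosomes and 2868, 2647 and 3443 CPM in supernatant, which overlapped (log2 fold change -0.51 ± 0.24 (SE), edgeR adjusted p = 0.0748; with all reads as library size 0.80, adjusted p = 0.0041).

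The inserts themselves differed in their 3′ ends. Over all reads, inserts of 20 bases or fewer made up 18.3, 15.3 and 14.2% in exosomes and 24.4, 28.4 and 33.8% in supernatant; among miRNA reads they made up 5.16, 5.28 and 5.06% and 8.96, 12.02 and 12.7% (each exact two-sided permutation p = 0.1). Among 52 miRNAs with at least 1000 CPM in both fractions, the mean insert was longer in every exosome library than in every supernatant library for 37 (71.2%), and shorter for 4 (7.69%), with a median difference of 0.301 bases. The share of reads that begin at the annotated base was 87.2% ± 1.02 in exosomes and 86.6% ± 0.756 in supernatant (SD, n = 3, exact two-sided permutation p = 0.5). It was counted as 0 for miRNAs without a RefSeq position, such as miR-143-3p and miR-30d-5p. This share therefore depends on which miRNAs a fraction holds and does not measure 5′ ends alone.

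miR-182-5p had one of the largest shifts in length. Its inserts averaged 23.8, 23.7 and 24.02 bases in exosomes and 21.8, 21.5 and 21.6 bases in supernatant. Those of miR-9-5p averaged 22.1, 22.2 and 22.3 bases in exosomes and 20.9, 20.6 and 20.6 bases in supernatant. Of the miR-27b-3p reads, 39.9, 40.9 and 43.5% were of 20 bases or fewer in exosomes and 63.6, 67.4 and 80.6% in supernatant; with inserts of 21 to 26 bases alone miR-27b-3p was higher in exosomes by 0.86 (edgeR adjusted p = 0.0032), where the full range of lengths gave no call. The 4 miRNAs whose inserts were shorter in exosomes were miR-204-5p, miR-140-3p, miR-151-3p and let-7c-5p, by differences of −0.236, −0.287, −0.190 and −0.046 bases.

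Reads that carry bases not in the hairpin at their 3′ end were also unevenly divided. Such bases arise when enzymes add untemplated U or A to a miRNA, and from sequencing errors, and the 2 were not told apart. An insert of 18 bases cannot depart after base 18, and short inserts have few bases that could. The share is therefore not independent of insert length, whose part in the difference was not tested. Among all miRNA reads 13.7, 14.1 and 14.9% departed from the hairpin after base 18 in exosomes and 11.7, 10.5 and 10.2% in supernatant (exact two-sided permutation p = 0.1). By miRNA, the share was higher in every exosome library than in every supernatant library for 26 of the 52 (50.0%) and lower for 5 (9.62%). The most abundant miRNA of supernatant was a clear case: for miR-92a-3p 16.9, 18.6 and 21.4% of reads departed in exosomes and 2.63, 2.28 and 2.84% in supernatant. For miR-24-3p the share was 38.5% ± 1.64 in exosomes, 13.4% ± 2.23 in supernatant and 31.4% ± 0.993 in cells (SD, n = 3). miR-140-3p went the other way, at 32.7% ± 1.78 in exosomes and 56.1% ± 10.0 in supernatant.

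**Figure D5:**
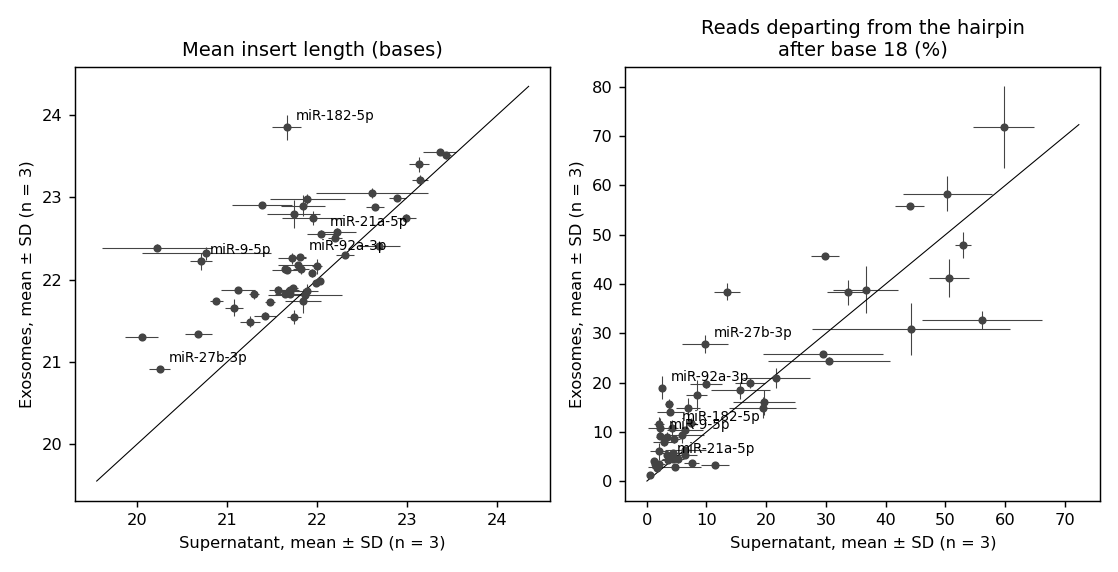
Mean insert length in bases (left) and percent of reads that depart from the hairpin after base 18 (right) for 52 miRNAs with at least 1000 CPM in both fractions, supernatant on the x axis and exosomes on the y axis, mean ± SD over 3 libraries; the line marks equal values. Most points of the left panel lie above the line, with miR-182-5p at 23.9 bases in exosomes and 21.7 in supernatant, and miR-92a-3p lies above it on the right.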

How the data were processed

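TRIzol RNA received an adapter at each end and was amplified, and products of miRNA size were taken from a gel, per the labels' protocols, which name no molecular identifiers. The authors deposited counts: each library lists distinct trimmed inserts with the number of reads of each, which PCR copies can inflate, so that intervals and floors cover counting error only. No source used here names the trimming tool. Inserts of 18 to 26 bases were assigned when their first 18 bases matched a hairpin arm of 1222 mouse hairpins (RefSeq, with GENCODE M21 for names that RefSeq's table lacked), and equal matches went to the arm with fewest later mismatches. Arms sharing at least 50% of their reads were merged, and reads still tied (0.0783 to 0.212% of those assigned) were left out.

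The 9 TUBO libraries were fitted with edgeR 4.0.16 in R 4.3.3 (TMM scaling, filterByExpr, robust quasi-likelihood test, no replicate block, Benjamini-Hochberg adjustment over all tested miRNAs, threshold 0.05), a step tested on simulated data. Log2 fold changes are exosomes minus supernatant, and every adjusted p without another name is from this test. The test returns no standard error, so each SE is the absolute log2 fold change divided by the square root of the test's F statistic. Shares were compared by exact permutation. DESeq2 1.42.0 and other scalings, filters, match rules and left-out libraries were alternatives. Named miRNAs are the 12 largest rises and the 12 largest falls with at least 100 CPM and no overlap between fractions, the 5 most abundant of each fraction, the 4 most abundant of each list, their hairpin or transcript partners, and miR-9-5p and miR-30a-5p; miRNAs named for their insert ends, their seed family or a count of 5 or fewer were chosen after their values were seen. The comparison and the lists were chosen with earlier results of these data known.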

Additional observations from a re-analysis of the deposited data

How the results depend on the processing

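The counts of 83 and 75 miRNAs stayed within 1.5 times under every alternative run except all reads as library size (142 and 32); leaving out 1 library at a time gave 83 to 97 and 69 to 79, and DESeq2 91 and 67. RLE, upper-quartile and no scaling moved the median log2 fold change from 0.21 to 0.48, 0.52 and 0.52. Same-numbered exosome and supernatant libraries correlated at 0.0769, 0.092 and 0.185 in their deviations from group means, so they were not taken as paired; only the third exosome and supernatant libraries correlated best with each other, and with the replicate number as a block, on 6 libraries, 69 and 64 of 180 miRNAs were called, 131 of 135 earlier calls were shared, miR-19b-3p and miR-100-5p were lost (adjusted p = 0.21 and 0.058) and miR-195a-5p was gained (0.039).

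The difference in the share of reads assigned to miRNAs, 28.7 points, was 22.7 when the whole insert had to match, 24.7 when only inserts fitting 1 mature miRNA by their first 18 bases counted, and 25.2 when inserts had to start at the annotated base. The last 2 moved the miR-25/92 difference from −27.8 to −32.0 and −31.7 points, and the former moved the let-7 difference from 0.478 to 3.42. The rule of fitting 1 mature miRNA drops most let-7a-5p and let-7c-5p reads. The rule on the annotated base drops every miRNA without a RefSeq position, so both shares cover fewer miRNAs. The difference in short inserts, −12.9 points, was −6.05 among miRNA reads. All reads as library size reversed let-7c-5p (0.17), miR-106b-3p (0.40), miR-30d-5p (0.54), miR-27b-3p (1.19), miR-27a-3p (0.86), miR-16-5p (0.80), miR-15b-5p (0.04) and miR-100-5p (0.59), and inserts of 21 to 26 bases reversed miR-27b-3p (0.86). The cause was not tested. Of 75 named and tested miRNAs, 46 kept their side of the threshold throughout; of these miR-199a-3p/miR-199b-3p, not called, changed sign under several, from −0.23 to as much as 0.99 with all reads as library size. The supernatant depth limits what can be seen there: a miRNA with no read may lie up to 14.2 CPM over the 3 libraries.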

Other observations

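The miR-148/152 seed family, which targets DNA methyltransferase transcripts, had 2 of its 3 members higher in exosomes and none in supernatant. Among all tested miRNAs these shares were 33.9 and 30.6%. miR-148b-3p and miR-152-3p were higher in exosomes, at log2 fold changes of 1.96 and 0.92 (edgeR adjusted p = 4.5e-06 and 0.00716), while the far more abundant miR-148a-3p did not pass (−0.13, adjusted p = 0.742). Without supernatant replicate 3 miR-152-3p was at 1.67 and miR-148a-3p at 0.79 (adjusted p = 0.0002). Inserts of 27 bases or more, which are longer than a miRNA, made up 1.57, 4.65 and 5.72% of reads in exosomes and 10.9, 12.6 and 9.82% in supernatant, without overlap.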
